A study of Sus scrofa with 23 samples.

Results

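The sodium pump of kidney tubules is built from a catalytic alpha subunit, a glycosylated beta subunit and, in many tissues, a small FXYD protein. The genes described here are the beta subunit genes ATP1B1, ATP1B2 and ATP1B3 and the FXYD genes FXYD1, FXYD2, FXYD5 and FXYD6, 7 in all. They were chosen by name and not by a measured value, but with earlier results of these data known. They were found by symbol in the annotation of the transcript tables, and 6 of the 7 were present among 26687 genes. FXYD1 matched no symbol and was not analysed here. RNA came from the kidney cortex of 23 untreated newborn pigs, 1 library a pig, with 11 labelled CF (CFTR-/-), 6 labelled HET (CFTR+/-) and 6 labelled WT (wild type). HET and WT together are the 12 non-CF libraries. The CF and HET alleles were inherited, so they were carried by every cell, and neither litter nor sex is labelled. Whole cortex was sequenced, so fewer cells of a type and less RNA per cell cannot be told apart.

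The pump moves sodium out of the cell and potassium in, at the cost of ATP. In tubule cells it sits in the membrane facing the blood, and the sodium gradient it keeps powers the uptake of glucose, amino acids and phosphate from the urine. The beta subunit is needed for the alpha subunit to fold and reach the membrane. FXYD proteins cross the membrane once and tune the affinity of the pump for its ions in a tissue-specific way. FXYD2, the gamma subunit, is the member best known from kidney tubules. FXYD5, also called dysadherin, is known as well for weakening contacts between cells, and FXYD6 was first described in brain.

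The family takes its name from a short run of amino acids, P-F-X-Y-D. The coding bases around that run are shown for the 3 FXYD members because they are what the members share by definition. They were read from the pig genome (Sscrofa11.1, RefSeq), with the codons of the motif in capitals.
FXYD2: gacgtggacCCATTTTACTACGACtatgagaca
FXYD5: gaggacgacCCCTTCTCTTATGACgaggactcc
FXYD6: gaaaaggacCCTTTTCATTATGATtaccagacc
In each of the 3 genes an intron cut the motif at the same place, after 13 of its capital bases, so that the last 2 lay in the next exon. The blocks of FXYD2 were chr9:45167714-45167735 and chr9:45167535-45167545 on the minus strand, those of FXYD6 chr9:45188692-45188713 and chr9:45188555-45188565 on the minus strand, and those of FXYD5 chr6:44692153-44692174 and chr6:44692253-44692263 on the plus strand. The motif began at codon 18 in FXYD2 and codon 29 in FXYD6, but at codon 149 in FXYD5, whose leading transcript held 645 coding bases against 198 and 288.

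FXYD2 and FXYD6 were near neighbours. FXYD2 lay at chr9:45165314-45172440 and FXYD6 at chr9:45182396-45218249, both on the minus strand, with the long non-coding gene LOC110255436 between them, 126 bases from FXYD2 on the same strand. FXYD5 (chr6:44682245-44696088, plus strand) began 398 bases after the end of FXYD7, another family member on the same strand. ATP1B1 lay at chr4:81912543-81937015 on the minus strand, 266 bases from the opposite-strand gene NME7. ATP1B2 lay at chr12:52925697-52932638 and ATP1B3 at chr13:82680442-82727052, both on the plus strand. No annotated gene overlapped a member.

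FXYD2 had 2 alternative first exons, which give the protein different starts. The coding bases of each are shown because they are the only coding bases in which the transcripts differ, with the start codon in capitals, read on the minus strand of Sscrofa11.1.
Near first exon (chr9:45169688-45169712): ATGgcagggttgtcgacggacaatg
Far first exon (chr9:45172180-45172198): ATGgacaggtggtacctgg
The other 4 coding exons, with 173 coding bases, were common to all 3 annotated FXYD2 transcripts. Transcript XM_005656629.3 used the far exon. The other 2 used the near one, and of these NM_001014427.1 held nothing but the 198 coding bases of XM_005656628.3, so each of its reads could also come from the longer transcript. The start of the far exon lay 2728 bases upstream of the coding start in the near exon as annotated for the coding-only transcript.

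Library totals ran from 32901281 to 52952273 estimated counts. Wild-type pig 12 stood apart in the share of counts taken by the 100 most counted genes, 28.4% against 20.7% to 24.5% in the others. CFTR itself did not follow the order that loss of the gene would give: it had a median of 20.7 CPM (counts scaled to library size) in libraries labelled CF, 12.1 in those labelled HET and 2.24 in those labelled WT. The labels were used as given, and CF, HET and WT stand below for the libraries labelled so. Pigs 1 to 6 and 12 to 18 (13 libraries) and pigs 7 to 11 and 19 to 23 (10 libraries) were seen in earlier work on these data to separate by expression. The labels name no batch, so they are called earlier-numbered and later-numbered pigs here, and values within each set are given where they differ. Markers of the tissue were present in all groups: the summed level of 7 proximal tubule markers was 1625 to 3283 TPM (counts scaled to transcript length and library), that of 5 thick ascending limb markers 374 to 576 TPM and that of 4 podocyte markers 185 to 395 TPM. That of 4 glia and nerve markers was 2.60 to 5.35 TPM, and that of 5 skeletal and heart muscle markers 1.66 to 3.66 TPM. The 4 distal convoluted tubule markers summed to 266 ± 49.7 TPM (SD, n = 11) in CF, 478 ± 286 (n = 6) in HET and 501 ± 115 (n = 6) in WT, and their part in the values below was not tested. Of 58 genes in 12 marker lists, none passed an adjusted p of 0.05 in any of the 4 comparisons (edgeR). At an unadjusted p under 0.05 there were 8 of 53 tested for CF against non-CF (13.7% of all genes), and of 54 tested 8 for CF against WT (14%), 3 for HET against WT (8%) and 6 for CF against HET (9.83%).

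FXYD2 and ATP1B1 were by far the most abundant of the 6 genes per unit of transcript length (levels in TPM, medians over 23 libraries). FXYD2 was listed at a median of 1268 TPM and stood 22nd of 20921 genes tested, and ATP1B1 followed at 505 TPM and stood 108th. ATP1B3 had 34.2 TPM, FXYD6 had 11.0 TPM and FXYD5 had 8.71 TPM. ATP1B2, the beta subunit best known from brain glia, had 0.773 TPM. Each gene exceeded the next in this order in 23 of 23 libraries, except that FXYD6 exceeded FXYD5 in 21 of 23. FXYD6 and FXYD5 were thus the neighbours that did not separate, with a ratio from 0.891 to 2.0. ATP1B1 made up 90.4% to 95.3% of the TPM of the 3 beta subunit genes.

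**Figure D1:**
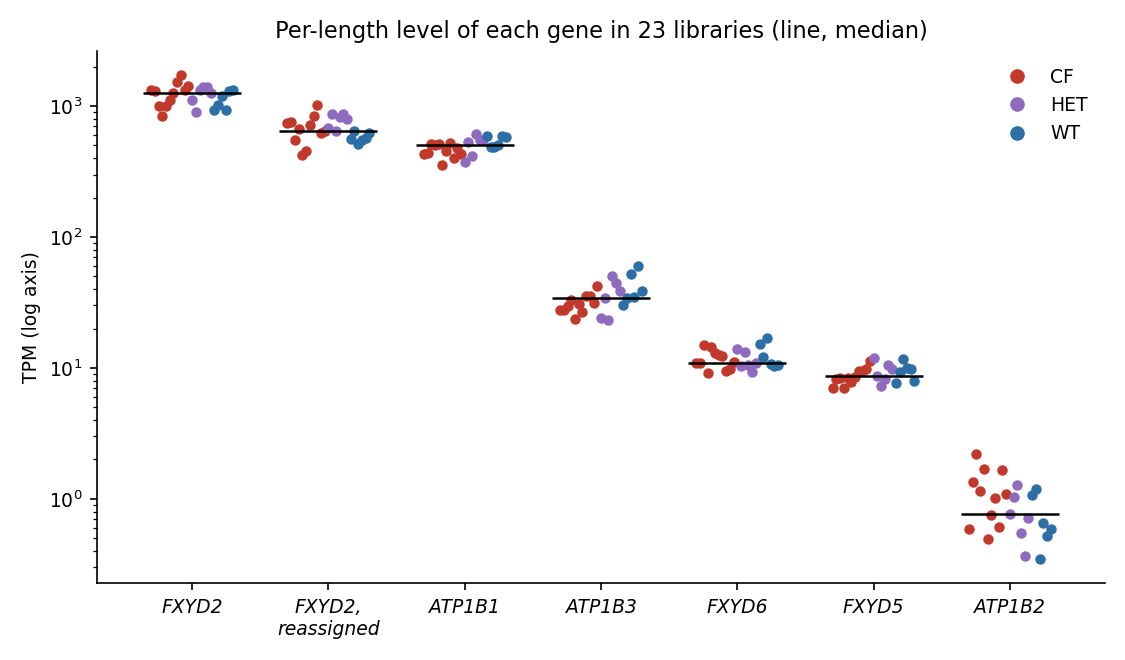
TPM (log axis) of each gene in the 23 libraries, coloured by genotype label, with the median as a line; FXYD2 is drawn as deposited and also with its coding-only transcript counted with the longer one. FXYD2 and ATP1B1 lay above ATP1B3 in every library (ATP1B1 by a median ratio of 15.1), and FXYD6 and FXYD5 ran into each other.

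The position of FXYD2 depended on how 1 short transcript was scaled. The coding-only transcript had an effective length (the number of positions a fragment can start from) of 57.4 to 64.4 bases. It took a median of 14.7% of the FXYD2 counts but 52.0% of the FXYD2 TPM. With its counts given to the longer transcript that holds the same bases, a scale added after seeing the data, FXYD2 had a median of 649 TPM. FXYD2 was then above ATP1B1 in 20 of 23 libraries, with a median ratio of 1.35, against 23 of 23 and 2.43 as deposited. Counts per gene, used for the fold changes below, do not depend on this split, while the tests of TPM ratios and shares do.

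The near first exon carried nearly all FXYD2 counts in every group. The far exon took 3.84% to 11.3% in CF (median 6.08%), 3.95% to 10.4% in HET (median 5.74%) and 2.41% to 9.12% in WT (median 5.94%). The groups overlapped throughout, and the means differed by 0.398 percentage points between CF and non-CF (permutation test, two-sided, p = 0.696, adjusted p = 0.890 over 4 comparisons).

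The first comparison asked whether the 6 genes differed between CF and non-CF cortex. None passed an adjusted p of 0.05 (edgeR quasi-likelihood test, Benjamini-Hochberg over 20921 genes, of which 0.349% passed). The adjusted p-values ran from 0.311 to 0.961. At an unadjusted p under 0.05, ATP1B2 and ATP1B3 passed, 2 of 6 against 13.7% of all genes. The median log2 fold change of the 6 was -0.07, and that of all genes -0.00052.

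**Figure D2:**
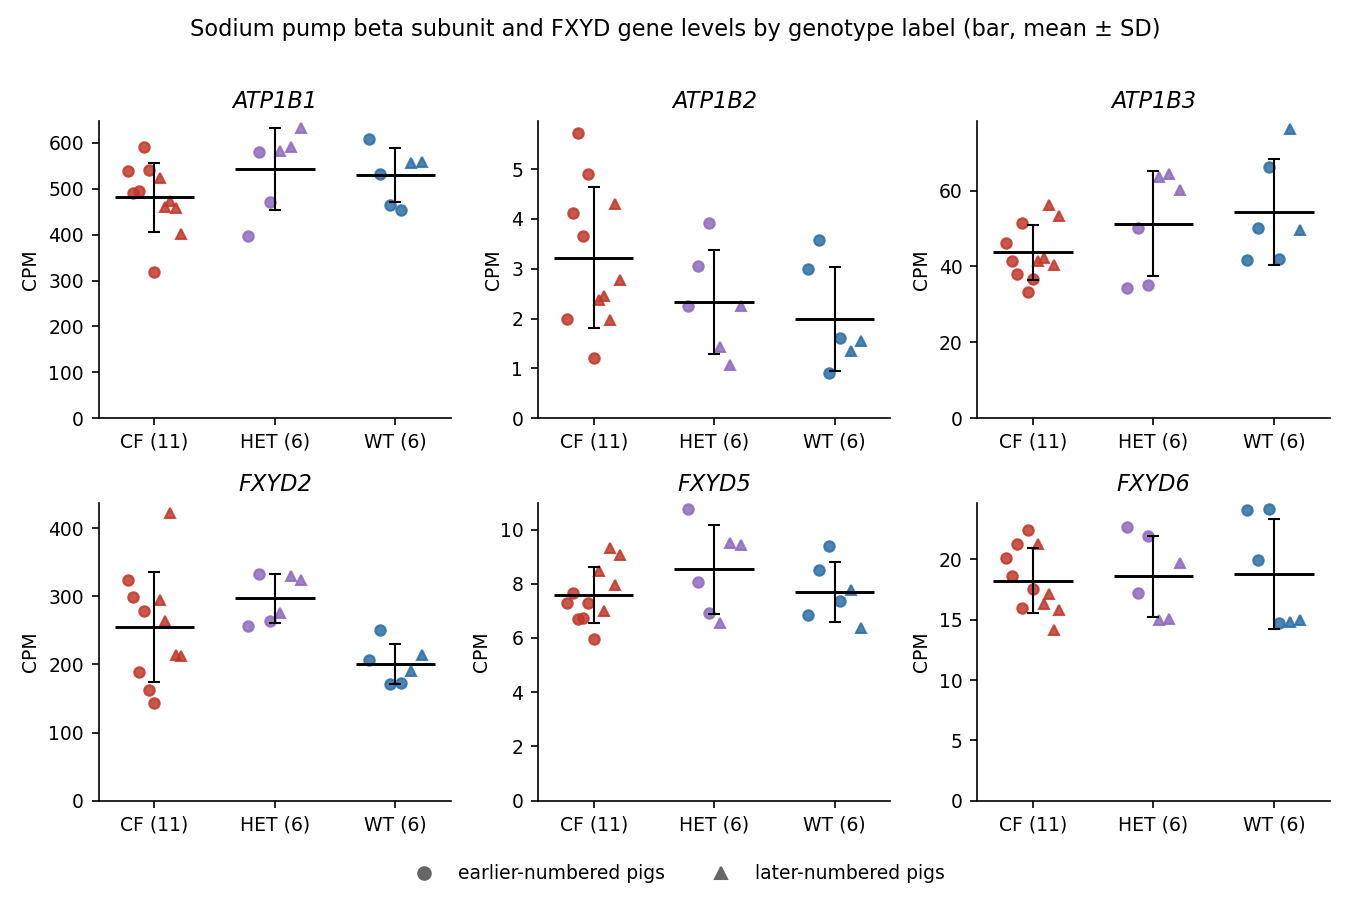
CPM of the 6 genes in each library by genotype label, with the mean and SD as bars, circles for earlier-numbered and triangles for later-numbered pigs, and the number of libraries in brackets. CF and non-CF libraries overlapped for every gene, while the 6 HET libraries lay above the 6 WT libraries for FXYD2.

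ATP1B1, the main beta subunit of kidney tubules, was 318 to 592 CPM in CF (median 491), 397 to 633 in HET (median 582) and 455 to 608 in WT (median 544). The groups overlapped, although 10 of 11 CF libraries lay at or below the non-CF median. The mean was 481 ± 74.4 CPM (SD, n = 11) in CF and 536 ± 72.5 (n = 12) in non-CF, a log2 fold change of -0.16 (SE 0.0896, 95% confidence interval -0.34 to 0.03, adjusted p = 0.464). The interval holds a fold from 0.790 to 1.02. The log2 fold change is also given within each of the 2 sets of pigs. Among earlier-numbered pigs the log2 fold change was -0.01 (SE 0.134, adjusted p = 0.990). Among later-numbered pigs it was -0.33 (SE 0.0838, adjusted p = 0.0609). There the 5 CF libraries were 402 to 523 CPM and the 5 non-CF libraries 557 to 633 CPM, without overlap, as for 2.39% of all genes in the same direction. The difference between the sets itself did not pass (p = 0.0748, adjusted p = 0.548, edgeR interaction term). Sums of distal segment markers are given beside these values. Among later-numbered pigs the 4 distal convoluted tubule markers summed to 243 to 332 TPM in CF (mean 291) and 532 to 909 TPM in non-CF (mean 679). Among earlier-numbered pigs they summed to 184 to 317 TPM in CF (mean 245) and 181 to 501 TPM in non-CF (mean 354). The 5 collecting duct markers summed to 161 to 222 TPM in CF and 178 to 255 TPM in non-CF among later-numbered pigs, and to 164 to 262 TPM and 166 to 268 TPM among earlier-numbered pigs. Of these 9 markers TRPM6, CALB1, AQP2 and AQP3 had an unadjusted p under 0.05 for the difference between the sets, each with a lower CF effect in later-numbered pigs, and none passed after adjustment (edgeR, adjusted p from 0.0677 to 0.378). Their part in the ATP1B1 values was not tested.

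ATP1B3, a beta subunit found in many tissues, was 33.4 to 56.3 CPM in CF (median 41.5), 34.3 to 64.3 in HET (median 55.1) and 41.6 to 76.3 in WT (median 49.9). CF lay lower within a shared range, and 8 of 11 CF libraries lay at or below the non-CF median. The log2 fold change of CF against non-CF was -0.27 (SE 0.122, 95% confidence interval -0.52 to -0.02, p = 0.0355, adjusted p = 0.319, edgeR). It was -0.14 among earlier-numbered and -0.42 among later-numbered pigs (adjusted p = 0.819 and 0.0962), and the difference of the sets had an adjusted p of 0.690.

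ATP1B2 was the least abundant member, at a median of 104 estimated counts a library. It was 1.21 to 5.73 CPM in CF (median 2.77), 1.07 to 3.93 in HET (median 2.25) and 0.904 to 3.57 in WT (median 1.58). Of the 11 CF libraries, 10 lay above the non-CF median and 4 above every non-CF library, but the lowest CF library lay within the WT range. The log2 fold change was 0.58 (SE 0.258, 95% confidence interval 0.05 to 1.11, p = 0.0335, adjusted p = 0.311, edgeR), or 1.49-fold. It was 0.47 among earlier-numbered and 0.87 among later-numbered pigs (adjusted p = 0.739 and 0.0786). This gene also varied most among the 23 libraries, 6.34-fold from lowest to highest, against 1.71-fold to 2.96-fold for the other 5.

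FXYD2 was 143 to 423 CPM in CF (median 264), and that range held all 12 non-CF libraries, at 171 to 332 CPM (median 254). The log2 fold change was 0.03 (SE 0.156, 95% confidence interval -0.29 to 0.35, adjusted p = 0.961, edgeR). FXYD5 was 5.97 to 9.30 CPM in CF (median 7.28) and 6.36 to 10.7 CPM in non-CF (median 7.92), with a log2 fold change of -0.10 (SE 0.0946, 95% confidence interval -0.29 to 0.09, adjusted p = 0.705). FXYD6 was 14.1 to 22.4 CPM in CF (median 17.6) and 14.7 to 24.2 CPM in non-CF (median 18.4), with a log2 fold change of -0.04 (SE 0.104, 95% confidence interval -0.25 to 0.18, adjusted p = 0.934). For these 3 genes the ranges of CF and non-CF overlapped widely, and the direction was not the same in both sets of pigs.

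Against WT alone, none of the 6 passed for CF (edgeR, adjusted p from 0.338 to 0.958; 0.336% of 21434 genes passed). ATP1B2 (log2 fold change 0.69, SE 0.326, p = 0.0436) and ATP1B3 (-0.31, SE 0.149, p = 0.0468) had an unadjusted p under 0.05, 2 of 6 against 14% of all genes. ATP1B1 stood at -0.14 (SE 0.110) and FXYD2 at 0.34 (SE 0.168, adjusted p = 0.364). FXYD5 and FXYD6 stood at -0.02 (SE 0.114) and -0.04 (SE 0.129). These values share the CF and WT libraries with the comparison above and are no separate evidence.

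For CF against HET none of the 6 passed (edgeR, adjusted p from 0.631 to 0.969; 0% of 21434 genes passed), and none had an unadjusted p under 0.05, against 9.83% of all genes. The count over all genes was 63 with DESeq2 and 525 among later-numbered pigs alone, with none of the 6 among them. The log2 fold change was -0.17 (SE 0.110) for ATP1B1, 0.47 (SE 0.321) for ATP1B2 and -0.23 (SE 0.150) for ATP1B3. FXYD2 stood at -0.22 (SE 0.165), FXYD5 at -0.17 (SE 0.114) and FXYD6 at -0.03 (SE 0.129).

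**Figure D3:**
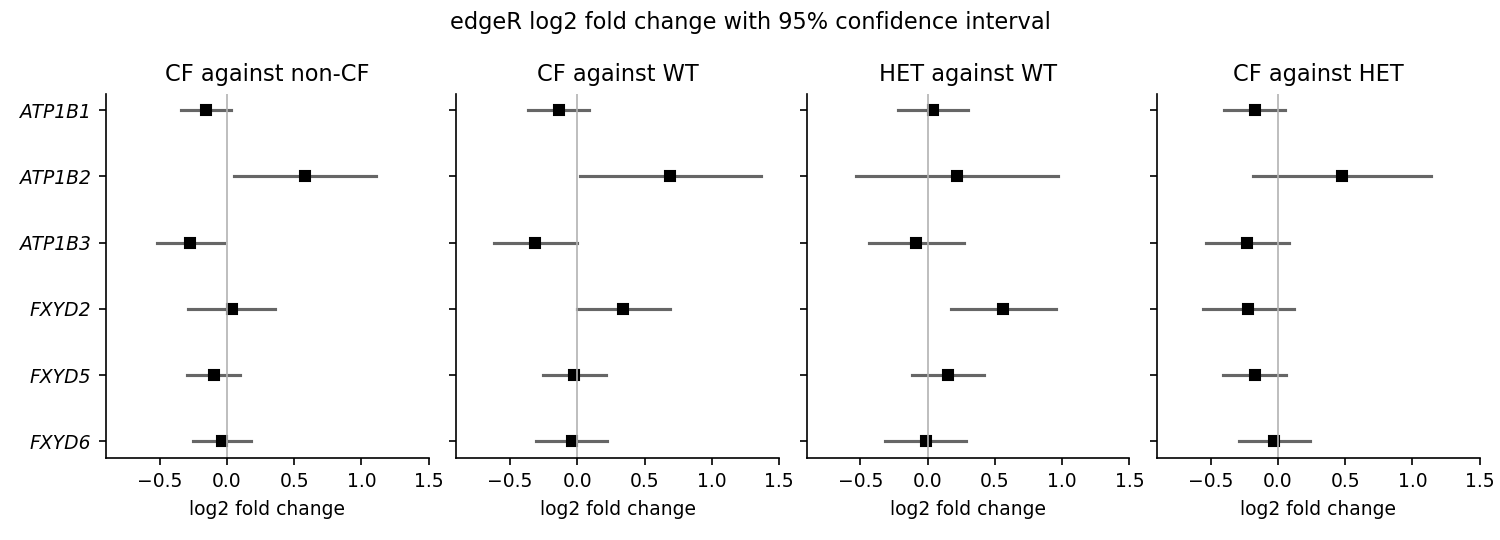
log2 fold change of each gene (square) with its 95% confidence interval (line) in the 4 comparisons, from edgeR. The intervals that leave out 0 are those of ATP1B2 and ATP1B3 for CF against non-CF and CF against WT and that of FXYD2 for HET against WT; none of these passed after adjustment over all genes.

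HET against WT also called none of the 6 (edgeR, adjusted p from 0.541 to 0.987; 0.00467% of 21434 genes passed). FXYD2 alone had an unadjusted p under 0.05, 1 of 6 against 8% of all genes. It was 257 to 332 CPM in HET (median 299.6) and 171 to 250.3 CPM in WT (median 198). All 6 HET libraries lay above all 6 WT libraries, as in 0.406% of all genes. The log2 fold change was 0.56 (SE 0.190, 95% confidence interval 0.17 to 0.95, p = 0.00651, adjusted p = 0.541), or 1.48-fold. It was 0.50 among earlier-numbered and 0.62 among later-numbered pigs (adjusted p = 0.580 and 0.538). CF libraries, with a median of 264 CPM, spread across both ranges: 6 of 11 lay above every WT library and 5 of 11 below every HET library.

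The size of this difference depended on the scale. On the deposited TPM the HET and WT libraries overlapped, at 1232 ± 192 TPM (SD, n = 6) and 1120 ± 181 TPM (n = 6), a 1.10-fold difference of the geometric means. With the coding-only transcript counted with the longer one, the 2 groups were again apart, at 780 ± 96.5 TPM and 579 ± 47.8 TPM, a 1.34-fold difference. The coding-only transcript took 0.712% to 20.4% of the counts in HET and 11.7% to 24.4% in WT, and its share of the deposited TPM was 41.8% ± 19.4 in HET and 56.5% ± 10.4 in WT. HET pig 14 stood lowest, with 4.25% of its FXYD2 TPM from that transcript, and the other 5 HET libraries had 44.6% to 61.5%. Its part in the difference between the scales was not tested.

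**Figure D4:**
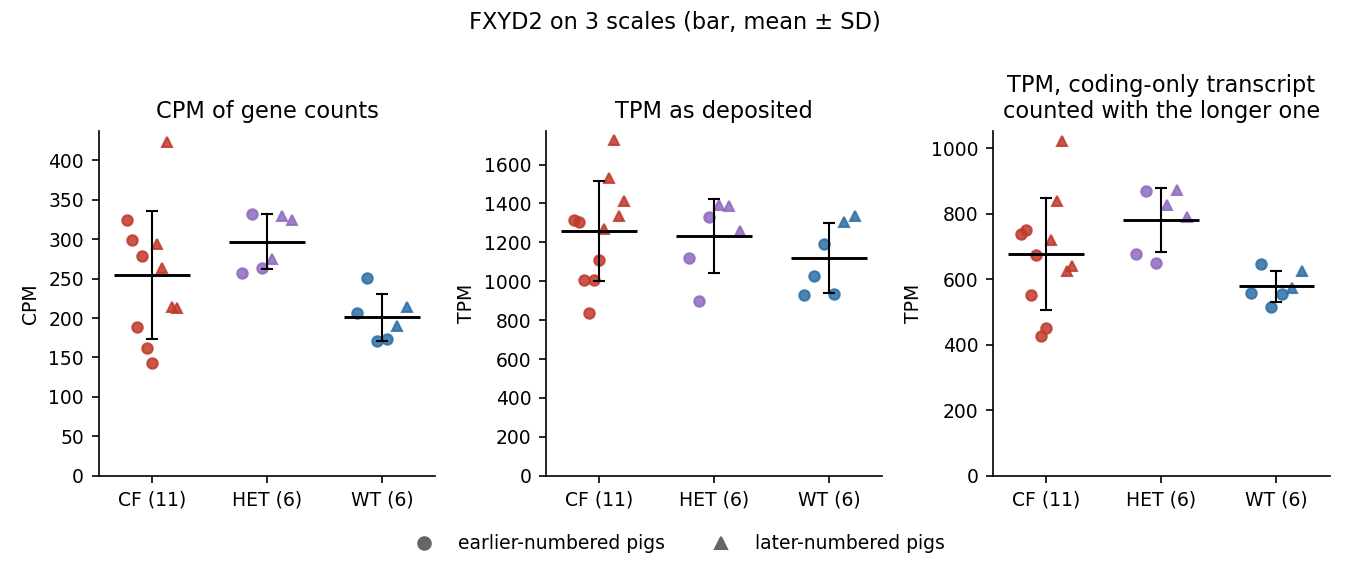
FXYD2 in each library by genotype label as CPM of gene counts, as deposited TPM and as TPM with the coding-only transcript counted with the longer one, with mean and SD as bars. The 6 HET libraries lie above the 6 WT libraries on the CPM scale and the recounted TPM scale and overlap them on the deposited TPM.

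None of 3 measures of the makeup of the pump RNA passed the test between CF and non-CF. The log2 ratio of FXYD2 to ATP1B1 TPM was 1.44 ± 0.40 in CF and 1.17 ± 0.30 in non-CF (difference 0.27, permutation test, two-sided, p = 0.0738, adjusted p = 0.221 over 3 tests). It ran from 0.73 to 2.11 in CF and from 0.66 to 1.67 in non-CF. This value moved with the set of pigs and the control. It was 0.46 among later-numbered pigs (exact permutation test, p = 0.00794, the smallest p that so few libraries can give). Among earlier-numbered pigs it was 0.12 (exact permutation test, p = 0.598). Against WT alone it was 0.40 (exact permutation test, p = 0.0399). These values rest on the deposited TPM. Over all pigs it was 0.17 with CPM (permutation test, p = 0.289). With the coding-only transcript counted with the longer one it was 0.16 (permutation test, p = 0.308), a scale not tested within the sets of pigs. The share of beta subunit TPM from ATP1B1 was 93.3% ± 1.30 in CF and 93.0% ± 1.38 in non-CF (permutation test, adjusted p = 0.618). FXYD2 gave 98.4% ± 0.370 of the TPM of the 3 FXYD members in CF and 98.2% ± 0.415 in non-CF (permutation test, adjusted p = 0.380). With the coding-only transcript counted with the longer one these shares were 96.9% ± 1.01 and 96.8% ± 0.889 (permutation test, p = 0.877).

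Transcript choice was also compared, in the 3 members with at least 2 transcripts of 10% or more of the mean TPM. The leading transcript of FXYD6 gave 58.9% ± 11.8 of its TPM in CF and 55.8% ± 8.74 in non-CF, and that of FXYD5 31.3% ± 11.09 and 29.1% ± 7.73. For FXYD2 the leading transcript by TPM was the coding-only one, with shares of 54.9% ± 13.2 and 49.2% ± 16.7. Its mean share of the counts was 17.6% and 14.8%, and its split from the longer transcript is an estimate. None of the 3 passed (permutation test, adjusted p = 0.610 for each). FXYD5 was spread over 10 annotated transcripts whose reads largely overlap, so its split is an estimate; the leading one had a median of 104 counts.

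The 6 genes were next compared with each other across libraries. Of 15 pairs, only ATP1B2 and ATP1B3 passed an adjusted p of 0.05, with a negative correlation of log2 CPM (Pearson r = -0.59, permutation test, p = 0.0032, adjusted p = 0.0480; Spearman rho = -0.59, permutation p = 0.00441, adjusted p = 0.0661; n = 23). It was -0.50 without the 2 libraries farthest from the ATP1B2 median, and -0.51 with the genotype means removed (permutation test, adjusted p = 0.111). Within the sets of pigs r was -0.41 (n = 13) and -0.75 (n = 10). ATP1B1 and ATP1B3 had r = 0.44 and ATP1B1 and FXYD2 r = 0.42 (permutation test, adjusted p = 0.201 for both). The pair ATP1B1 and ATP1B2 had r = 0.53 among earlier-numbered and -0.65 among later-numbered pigs.

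The genes most like each member over the 23 libraries, by Pearson r of log2 CPM among 21434 genes, were listed as a description. The points share library, depth and set of pigs. ATP1B1 was most like RHCG, an ammonia channel of the distal tubule and collecting duct (r = 0.86, with 0.90 within earlier-numbered and 0.77 within later-numbered pigs), and EPS15L1 was also among the 3 most like it (r = 0.84). ATP1B3 was most like PPIA, a protein-folding enzyme (r = 0.95), PCNA, a clamp of the DNA replication machinery (r = 0.94), and KPNA2, a nuclear import factor (r = 0.93). FXYD6 was most like CDH5, the cadherin of endothelial cells (r = 0.83), SLIT3 (r = 0.82) and FBLN2, an extracellular matrix protein (r = 0.80). FXYD2 was most like DDRGK1 (r = 0.91), IDH3G, a subunit of a citric acid cycle enzyme (r = 0.88), and TRAPPC2L (r = 0.87). ATP1B2 was most like SLC30A3 (r = 0.81), ELMO3 (r = 0.79) and GNG7 (r = 0.78), and FXYD5 was most like PKIG (r = 0.74), SARS (r = 0.74) and STK19 (r = 0.72).

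**Figure D5:**
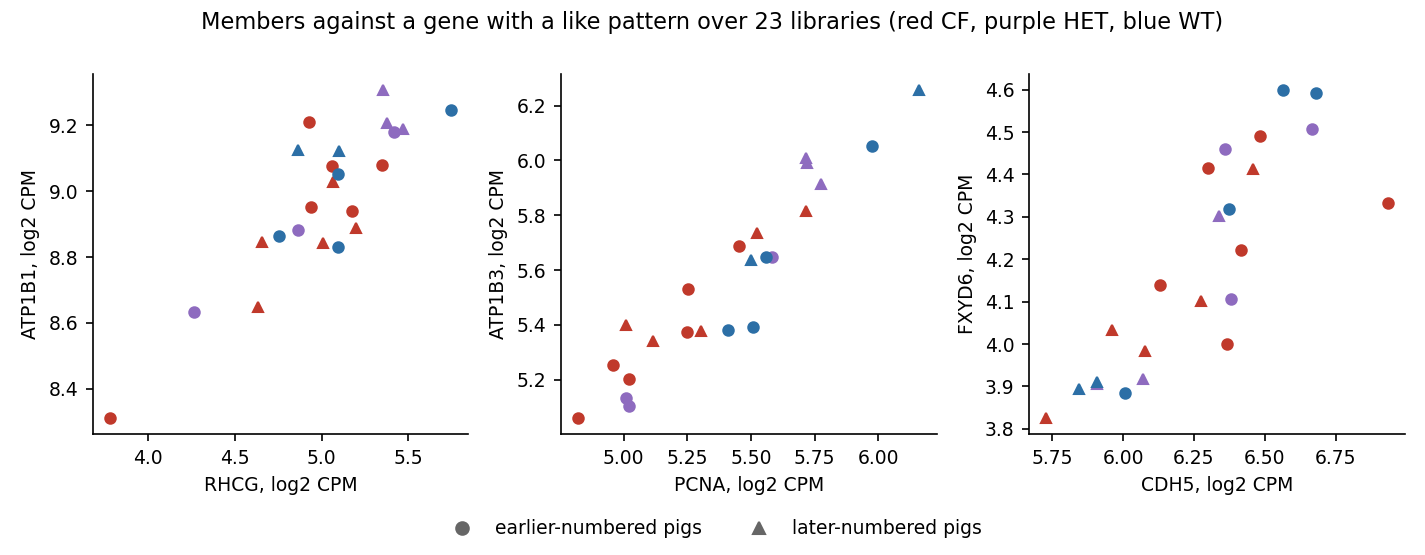
log2 CPM of ATP1B1 against RHCG, ATP1B3 against PCNA and FXYD6 against CDH5 in the 23 libraries, coloured by genotype label, circles for earlier-numbered and triangles for later-numbered pigs. The points rise together in each panel (r = 0.86, 0.94 and 0.83).

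The other sodium pump genes were listed as a group. Of 8, 7 had a symbol and passed the filter, and none was called in any of the 4 comparisons (edgeR). FXYD4, known from the collecting duct, was 23.6 to 135 TPM, above the medians of FXYD5 and FXYD6. It had a log2 fold change of 0.03 (SE 0.273, adjusted p = 0.979). FXYD7, next to FXYD5 on the chromosome, was 3.48 to 11.6 TPM, with a log2 fold change of 0.19 (SE 0.148, adjusted p = 0.6253). The list's median was 0.19 for CF against non-CF, with 6 of 7 genes higher and 1 lower, none of them past the threshold.

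The genes that the sodium gradient serves, or that control the pump, were listed by name, with earlier results of these data known. Of 45 genes in the 5 pathway lists, 43 were tested and 0 called for CF against non-CF, with 8 at an unadjusted p under 0.05 (edgeR), against 13.7% of all genes. Also 0 of 43 were called in the other 3 comparisons. At an unadjusted p under 0.05 there were 9 for CF against WT, 6 for HET against WT and 7 for CF against HET, against 14%, 8% and 9.83% of all genes. The 12 sodium entry genes had a median log2 fold change of 0.03 for CF against non-CF. SLC12A3, the sodium chloride carrier of the distal convoluted tubule, stood at -0.64 (SE 0.172, adjusted p = 0.0843). SLC12A1, that of the thick ascending limb, stood at -0.28 (SE 0.0808, adjusted p = 0.0966). The 9 potassium channels had a median of 0.08. Among them KCNK5, a proximal tubule channel that recycles potassium, stood at 0.37 (SE 0.167, adjusted p = 0.320), and KCNJ13 at 0.13 (SE 0.0788, adjusted p = 0.503). Against WT alone KCNK5 stood at 0.74 (SE 0.176, adjusted p = 0.0579), and it stood at 0.67 for HET against WT (SE 0.195, adjusted p = 0.443) and at 0.07 for CF against HET (SE 0.171, adjusted p = 0.924). The 13 pump control genes had a median of 0.01. WNK1, a kinase of salt transport, stood at 0.21 (SE 0.0702, adjusted p = 0.167), and HSD11B2, the enzyme that shields the aldosterone receptor from cortisol, at 0.26 (SE 0.0966, adjusted p = 0.216). Of the 3 proton-potassium pump genes 2 were tested, with ATP12A, the pump that can pair with other beta subunits, at 0.51 (SE 0.243, adjusted p = 0.356) and ATP4A at 0.17 (SE 0.142, adjusted p = 0.654).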

How the data were processed

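Cortex RNA of 23 newborn pigs was depleted of ribosomal RNA and sequenced as stranded libraries. Per the labels, the authors used kallisto and the build Sscrofa11.1; they deposited an estimated count and a TPM for each of 77689 RefSeq transcripts in each library. 64.0% of the transcript counts were not whole numbers, so here they were summed by symbol and rounded. TPM were summed by symbol. Groups followed the labels.

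Members and lists were chosen with earlier results of these data known. Tests used edgeR 4.0.16 (quasi-likelihood, TMM scaling, filterByExpr) in R 4.3.3. CF was compared with non-CF in a fit of these 2 groups, and the other comparisons used 1 fit of the 3 labels. Values in CPM were TMM-scaled, and log2 CPM used a prior count of 2. Calls needed a Benjamini-Hochberg adjusted p under 0.05 over all genes tested. Permutation tests were two-sided, with 100000 resamples or exact (scipy 1.17.1). Standard errors came from the log2 fold change and its F value. Named genes were the members, CFTR, neighbours on the chromosome, the 3 genes most alike and, of each list, the genes called or else the 2 with the smallest p for CF against non-CF; of the marker lists 4 genes are named, chosen after their values were seen, and some items the rule named are not reported here. The values of FXYD4 and of the marker sums shown were chosen after they were seen, and so was the level of FXYD2 with its coding-only transcript counted with the longer one. Each library is 1 pig. Intervals give the uncertainty of a difference between groups, estimated from the spread between pigs. They take pigs as independent, since litter is not labelled. The fits were tested on simulated data. Alternatives were DESeq2 1.42.0, limma 3.58.1, other scaling, filters, pig sets, TPM and each library left out.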

Additional observations from a re-analysis of the deposited data

How the results depend on the processing

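None of the 6 genes was called in any of the 4 comparisons under any alternative run, which were 23 libraries left out in turn and 12 other settings, of which the exact Mann-Whitney test was run for CF against non-CF alone. Of 822 log2 fold changes of single members, 779 kept their direction and 43 turned, all of genes that were not called. The cause was not tested.

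Among earlier-numbered pigs alone FXYD2 was -0.022 for CF against non-CF, ATP1B1 was -0.095 for HET against WT, and ATP1B1 and ATP1B3 were 0.035 and 0.046 for CF against HET. Among later-numbered pigs alone FXYD5 and FXYD6 were 0.081 and 0.097 for CF against non-CF and 0.26 and 0.20 for CF against WT, ATP1B3 and FXYD6 were 0.0035 and 0.16 for HET against WT, and FXYD6 was 0.034 for CF against HET. With the set of pigs as a term FXYD6 was 0.00407 for CF against WT and 0.039 for HET against WT. With limma on log2(TPM + 0.5) and on log2(TPM + 0.1) ATP1B1 was -0.11 and -0.11 for HET against WT, where the median of all genes stood at -0.11 and -0.13, and for CF against HET FXYD2 was 0.0189 under both and FXYD6 was 0.027 and 0.028.

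With 1 library left out, FXYD2 and FXYD6 ran from -0.064 to 0.090 and from -0.069 to 0.0039 for CF against non-CF, and FXYD5 and FXYD6 from -0.075 to 0.041 and from -0.10 to 0.044 for CF against WT. For HET against WT, ATP1B1 ran from -0.0075 to 0.11, ATP1B3 from -0.15 to 0.045 and FXYD6 from -0.081 to 0.074, and for CF against HET FXYD6 ran from -0.090 to 0.038.

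On the deposited TPM the log2 ratio of FXYD2 to ATP1B1 passed an unadjusted p of 0.05 among later-numbered pigs (0.46) and against WT alone (0.40). It ran from 0.21 to 0.35 with 1 library left out, passing without CF pig 3, 4 or 5 or HET pig 13 or 15. Over all pigs it did not pass with CPM (0.17) or with the coding-only transcript counted with the longer one (0.16). With genotype means removed, 0 of 15 pairs of members passed an adjusted p of 0.05, against 1, although r of ATP1B2 with ATP1B3 was -0.51 and that of ATP1B1 with FXYD2 0.51 (permutation test, adjusted p = 0.111 for both).

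Counts over all genes moved more. For CF against non-CF, edgeR called 73, DESeq2 515, limma-voom 46, limma on either TPM scale 8, the set of pigs as a term 148, a mean CPM of at least 1 115, later-numbered pigs alone 473 and earlier-numbered pigs alone 0 (1958 at an unadjusted p under 0.05). With 1 library left out the count ran from 17 (without HET pig 21) to 203 (without CF pig 4). For CF against WT it was 72 in edgeR, 575 in DESeq2, 139 with upper-quartile scaling, 172 with the set of pigs as a term, 122 at a mean CPM of at least 1, 118 with limma on log2(TPM + 0.5) and 7 among earlier-numbered pigs alone, and it ran from 20 (without WT pig 12) to 187 (without WT pig 23). For CF against HET it was 0 in edgeR, 63 in DESeq2, 525 among later-numbered pigs alone and 0 to 3 with 1 library left out. For HET against WT it was 1 in edgeR, 34 in DESeq2, 17 within either set of pigs and 1 to 3 with 1 library left out. Upper-quartile scaling gave 48 higher and 53 lower for CF against non-CF, against 51 and 22.

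No paired analysis was possible because each pig number belongs to 1 library and no number is shared between groups.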
